A study of Mus musculus with 2 samples.

Results

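Respiratory complex I (NADH:ubiquinone oxidoreductase) is built from many nuclear-encoded subunits, and the promoters of 35 of these genes were followed in single-cell ATAC-seq of embryonic mouse back skin. A list of the 35 genes was given by name. A member promoter was any accessible region within 500 bp of an annotated start site of a listed gene, in regions where each of the 2 libraries had a peak. All 35 genes had such a region. They held 37 of the 18975 protein-coding promoter regions in the series, and 35 of the 15862 genes with a promoter region. The list held 6 core and 29 accessory subunits, of which 15 sit in the matrix arm, 19 in the membrane arm and 1 (Ndufab1) in both arms.

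Complex I takes electrons from NADH, passes them through flavin and a chain of iron-sulfur clusters to ubiquinone, and pumps protons across the inner mitochondrial membrane. The core subunits are those conserved from bacteria. The nuclear ones carry the flavin and the iron-sulfur clusters in the matrix arm, while the proton-pumping core subunits are encoded by mitochondrial DNA and have no nuclear promoter. The accessory subunits surround this core and are needed for its assembly or stability. Because both genomes supply subunits, the nuclear promoters set only one side of the supply, and promoters of this kind are active in nearly all cell types, skin epithelium and dermis included.

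The study compared Control skin with MOF cKO skin at E16.5 (embryonic stage, in days), 1 library each. MOF (gene Kat8) is the acetyltransferase of histone H4 lysine 16. MOF cKO embryos carried MOFfl/fl/K14Cre, in which Cre under the keratin 14 promoter deletes the floxed allele in epithelial cells and leaves dermal cells with the gene. The label of the other library says Control only, and the study states that controls were littermates. Both groups carried the K14-H2BGFP reporter and came from a C57Bl/6J and CD-1 mixed background. The sex and the number of embryos of each library were not given. The study states that animals of both sexes were used and that this assay had 1 pair of samples. Cells were sorted on GFP and recombined at 5 parts GFP-positive to 1 part GFP-negative by the label. The text of the study gives other ratios, so the shares of cell classes are not compared here. No replicate exists, so no test was run, and every interval below is a 95% interval that covers counting error only, never the spread between embryos.

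Depth differed between the libraries. There were 2541 barcodes with 169641002 cut sites of the transposase in Control, and 4348 barcodes with 324310197 cut sites in MOF cKO. 21 barcode sequences occurred in both libraries. Cells were clustered, and epithelial-like cells (1385 Control and 2588 MOF cKO), fibroblast-like cells (655 and 1244), immune-like cells (46 and 282) and mural-like cells (19 and 69) were named from marker promoters. The summed level of 10 epithelial markers, Krt14, Krt5 and Trp63 among them, was 303 CPM (cut sites per 1000000 sites in the shared regions of that class) in Control and 261 CPM in MOF cKO epithelial-like cells. In fibroblast-like cells the same sum was 36.2 and 35.9 CPM. No listed epithelial marker was at 0 in epithelial-like cells. Markers of other cells were also present there: 10 fibroblast markers summed to 124 and 94.3 CPM (357 and 335 CPM in fibroblast-like cells) and 8 immune markers to 17.7 and 30.2 CPM, none of them at 0, and their part in the results was not tested. The name of the mural-like cells is less sure: 7 mural markers summed to 224 CPM in Control and 184 CPM in MOF cKO there. The 10 fibroblast markers summed to 198 and 215 CPM in the same cells, and with coarser clustering no cluster took the mural-like name. Epithelial-like cells of the 2 libraries fell almost wholly into different clusters (2, 5 and 10 in Control, 0, 3, 6 and 13 in MOF cKO). The start-site region of Kat8 itself differed by -0.41 on the log2 scale (-0.49 to -0.34) in epithelial-like cells, from 48.8 CPM in Control to 36.6 CPM in MOF cKO. That region need not be in the deleted part of the gene, so it does not check the deletion.

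The 37 regions were 826 to 1068 bp wide (median 904 bp), and each was 1 peak in each library. 33 genes had an annotated start inside their region. For Ndufa11 the region lay 267 bp from the nearest annotated start, at the start of Vmac, and the 2 regions of Ndufa13 lay 279 bp and 492 bp from its GENCODE start, beside Yjefn3 and Tssk6 (the RefSeq start of Ndufa13 lies inside the region at Tssk6). Ndufv2 had a second, weak region at chr17:66090825-66091892, near the start of an alternative transcript. 15 members shared a region with another protein-coding gene, such as Ndufs1 with Eef1b2, Ndufs3 with Kbtbd4, Ndufb3 with Fam126b, Ndufb5 with Mrpl47 and Ndufa1 with Rnf113a1. For these the cut sites of the 2 genes cannot be told apart.

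Sequences before the start are shown for the 2 lowest and 2 highest changes in epithelial-like cells and for 3 further members with a motif, each taken from members with at least 100 bases free of annotated exons. They are RefSeq sequence (GRCm38.p6), read 5′ to 3′ on the gene's strand. Capitals mark matches to the motifs searched: GGGCGG (Sp1) in Ndufb6, Ndufa10, Ndufb4 and Ndufa3, GCGCANGCG (NRF1) in Ndufs5 and Ndufb4, TGACGTCA (CREB and ATF) in Ndufb2, CCAATC (NF-Y) in Ndufb4, and ACTACANNT (Zfp143 and Ronin) in Ndufa3 and Ndufv1, on either strand. The stretches lie at chr4:40279422-40279571 (minus strand, Ndufb6), chr1:92473861-92474008 (minus, Ndufa10), chr4:123718203-123718352 (minus, Ndufs5), chr6:39592415-39592564 (plus, Ndufb2), chr16:37654454-37654603 (minus, Ndufb4), chr7:3617223-3617372 (plus, Ndufa3) and chr19:4012807-4012956 (minus, Ndufv1).
Ndufb6: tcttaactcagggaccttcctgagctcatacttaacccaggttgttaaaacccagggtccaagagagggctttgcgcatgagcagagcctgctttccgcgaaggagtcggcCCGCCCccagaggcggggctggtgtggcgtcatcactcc
Ndufa10: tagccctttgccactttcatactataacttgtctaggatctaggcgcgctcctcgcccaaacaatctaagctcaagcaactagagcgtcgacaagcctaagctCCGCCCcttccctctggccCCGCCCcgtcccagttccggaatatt
Ndufs5: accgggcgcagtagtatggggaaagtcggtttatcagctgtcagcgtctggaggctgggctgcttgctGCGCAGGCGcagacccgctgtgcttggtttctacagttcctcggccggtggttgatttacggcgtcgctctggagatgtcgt
Ndufb2: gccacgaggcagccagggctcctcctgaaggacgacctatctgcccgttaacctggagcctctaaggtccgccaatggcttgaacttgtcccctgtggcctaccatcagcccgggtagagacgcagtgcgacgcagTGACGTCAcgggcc
Ndufb4: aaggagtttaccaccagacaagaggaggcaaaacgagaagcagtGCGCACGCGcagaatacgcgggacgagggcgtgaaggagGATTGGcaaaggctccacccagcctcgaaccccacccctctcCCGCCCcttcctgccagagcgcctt
Ndufa3: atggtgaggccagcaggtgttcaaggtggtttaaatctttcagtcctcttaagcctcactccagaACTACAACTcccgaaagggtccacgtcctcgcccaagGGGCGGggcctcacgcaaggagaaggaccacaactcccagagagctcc
Ndufv1: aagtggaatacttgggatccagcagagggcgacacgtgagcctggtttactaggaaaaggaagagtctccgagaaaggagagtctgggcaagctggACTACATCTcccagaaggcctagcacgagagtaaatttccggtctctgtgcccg

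A RefSeq window of 250 bases before to 50 after the start was found for 32 of the 35 members and for 12255 genes with a promoter region. Windows of members had a median GC content of 59.2%, against 60.7% over all windows. Their CpG dinucleotides stood at 0.784 of the expected number (median), against 0.733. The NRF1 motif, bound by a factor known for respiratory chain promoters, was in 8 of the 32 and in 12.3% of all windows. The YY1 motif (AAGATGGC) was in 7 of the 32 (21.9%) and in 490 of the 12255 windows. The CREB and ATF motif was in 3 members (9.38%), against 3.08% of all, and the Zfp143 and Ronin motif in 2 (6.25%), against 5.32%. These shares rest on few windows and were not tested. The Sp1 motif was in 15 members (46.9%), against 62.2% of all, and the ETS motif (CCGGAAG) in 4 (12.5%), against 15.7%. The NF-Y motif was in 6 (18.8%), against 20.1%, and the TATA box (TATAAA) in 4 (12.5%), against 7.68%. The ERR motif (TCAAGGTCA) was in 0 of the 32, against 0.220% of all. Both strands were searched, and matches of different motifs can share bases. A match is a description of the letters and not a site.

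In epithelial-like cells the promoters of complex I were less accessible in MOF cKO than in Control, by about as much as promoters in general. The median change, as log2(MOF cKO / Control) of CPM, was -0.50 over the 35 members and -0.42 over all 15862 promoters. Every member was lower (35 of 35, against 85.8% of all promoters), although with the sites in promoter regions as the total 30 of 35 were lower and the median was -0.10, and with median-of-ratios size factors 34 of 35 were lower. 29 members lay below the median of all promoters. The interval of the change lay below 0 at 34 of 35 members, against 78.6% of all promoters (19 of 35, against 32.6%, with promoter sites as the total). 8 members fell by 1.5-fold or more, 22.9% of the list, against 18.9% of all promoters. None of the 35 fell by 2-fold or more or rose by 1.5-fold or more, against 2.5% and 4.34% of all promoters. With this scaling the share of members past the fold was near the background. The count moved with the setting: 28 of 35 fell with every peak of a library in the total (45.4% of all promoters) and 15 with cells thinned to 5000 sites (23.4%). It was 12 with sites per cell (30.3%), 2 with median-of-ratios size factors (7.55%) and 0 with promoter sites as the total (2.63%). The middle 50% of members ran from -0.55 to -0.45, and that of all promoters from -0.54 to -0.22. The last member past the fold was Ndufs4 at -0.59 and the first short of it Ndufa11 at -0.57.

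**Figure D1:**
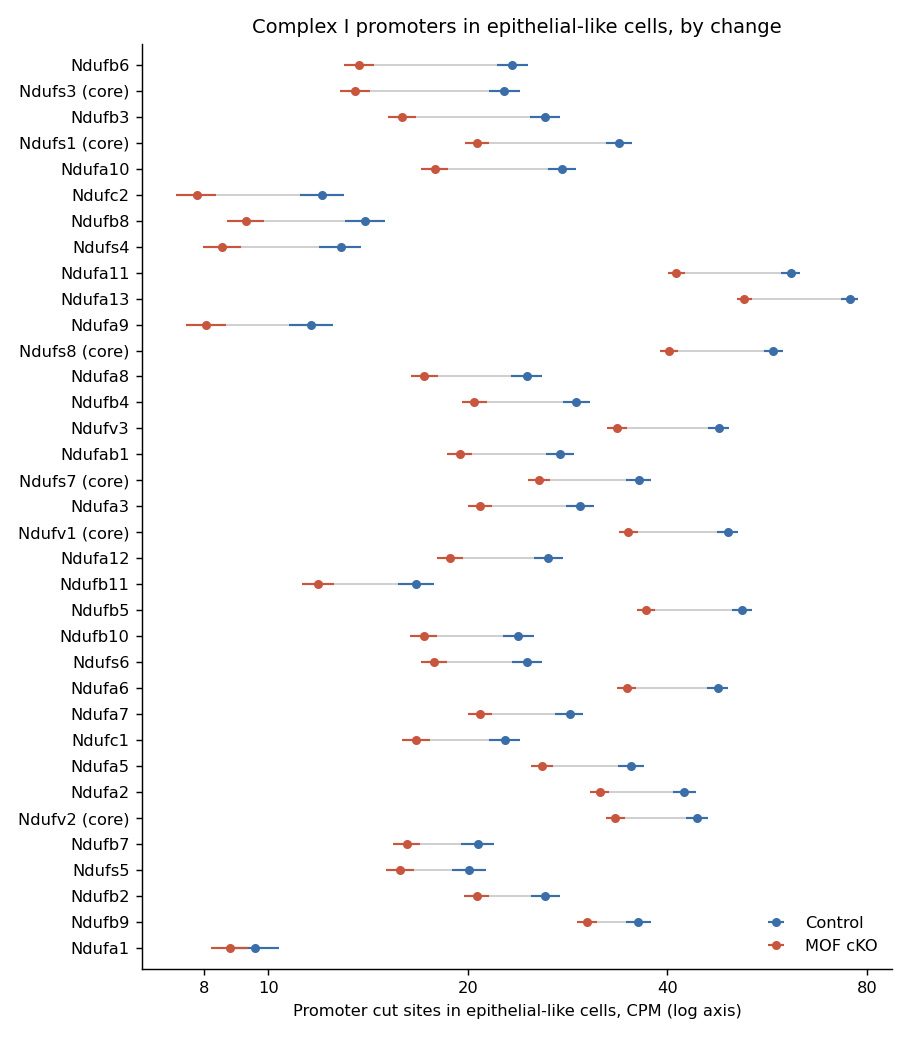
Promoter cut sites of each complex I gene in epithelial-like cells, in CPM on a log axis, for the Control and the MOF cKO library, ordered from the lowest change (top) to the highest. Bars are 95% counting intervals with 1 library per genotype; at every gene the MOF cKO point lies left of the Control point, and the bars overlap at Ndufa1 alone, so 34 of 35 genes have bars apart, against 75.4% of all promoters (with the sites in promoter regions as the total, 5 of the 35 genes turn to higher in MOF cKO).

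The 6 core subunits carry the electron path. Ndufv1, which binds NADH and flavin (region chr19:4012344-4013262), changed by -0.50 (-0.57 to -0.43), with 49.3 CPM in Control (47.5 to 51.1) and 34.9 CPM in MOF cKO (33.8 to 36.1). Ndufv2, an iron-sulfur subunit beside it (main region chr17:66101226-66102162), stood at 44.4 and 33.4 CPM, a change of -0.41 (-0.48 to -0.34). Of the 6 core genes it was the one above the median of all promoters (-0.4103 against -0.4181). Its main region alone gave -0.4214, below that median. With a 100 bp window, which keeps only the main region, the median of all promoters was -0.4244 and Ndufv2 stayed above it. The weak second region had 162 Control and 268 MOF cKO sites and a change of -0.10 (-0.51 to 0.31).

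Ndufs1, the largest iron-sulfur subunit (chr1:63176372-63177288), changed by -0.71 (-0.80 to -0.62), with 33.8 CPM in Control and 20.7 CPM in MOF cKO. Ndufs3, which holds the base of the arm without a cluster of its own (chr2:90904221-90905126), stood at 22.7 and 13.5 CPM, a change of -0.75 (-0.86 to -0.64). These were the fourth and second lowest changes among the members, and both regions also serve another gene. Ndufs7, which carries the last iron-sulfur cluster before ubiquinone (chr10:80248813-80249734), stood at 36.2 and 25.6 CPM, a change of -0.50 (-0.58 to -0.42). Ndufs8, which carries the pair of clusters before it (chr19:3912417-3913337), stood at 57.8 and 40.2 CPM, a change of -0.52 (-0.59 to -0.46). The last 2 lay at the middle of the list.

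Core and accessory subunits overlapped. The median change was -0.51 over the 6 core genes and -0.49 over the 29 accessory genes (an order that turned with regions counted as open or not and over members alone at their regions), and the range of the core genes, -0.75 to -0.41, lay inside that of the accessory genes, -0.77 to -0.13. 2 of the 6 core and 6 of the 29 accessory genes fell by 1.5-fold or more, against 18.9% of all promoters, and 0 of either with promoter sites as the total. Core promoters had the higher level, with a median of 40.3 CPM in Control against 26.2 CPM. The matrix arm and the membrane arm also had like medians, -0.50 over 15 genes and -0.50 over 19 genes, with a wider range in the membrane arm (-0.77 to -0.13, against -0.75 to -0.41). The 20 members with a region of their own had a median of -0.50, and the 15 that shared one -0.49.

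The lowest accessory genes were of the membrane arm. Ndufb6, a single-pass membrane subunit of the distal arm (chr4:40279010-40279946), had the lowest change of all, from 23.3 CPM in Control (22.1 to 24.6) to 13.7 in MOF cKO (13.0 to 14.4), or -0.77 (-0.88 to -0.66). Ndufb3, another small distal subunit (chr1:58585888-58586802), went from 26.1 to 15.9 CPM, or -0.71 (-0.82 to -0.61). Ndufa10, a membrane-arm subunit with a nucleoside kinase fold (chr1:92473441-92474395), went from 27.8 to 17.8 CPM, or -0.64 (-0.74 to -0.54). Their intervals lay wholly below the median of all promoters, as did those of other members, such as Ndufc2 (-0.78 to -0.48) and Ndufa11 (-0.64 to -0.51). The share of all promoters with such an interval was not computed. The other 3 past 1.5-fold were Ndufc2 at -0.63, Ndufb8 at -0.60 and Ndufs4 at -0.59, all of low level in Control (12.1 CPM for Ndufc2, the lowest of them).

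The highest changes were of the membrane arm too. Ndufa1, a small membrane subunit on the X chromosome (chrX:37190823-37191715), changed by -0.13 (-0.28 to 0.03), with 9.54 CPM in Control (8.77 to 10.4) and 8.74 CPM in MOF cKO (8.18 to 9.33). It was the one member whose interval held 0. Ndufb9, of the LYR-motif family (chr15:58933238-58934134), stood at 36.2 and 30.3 CPM, a change of -0.26 (-0.34 to -0.18). Ndufb2 (chr6:39592209-39593065) stood at 26.2 and 20.6 CPM, a change of -0.34 (-0.44 to -0.25). Ndufs5, a disulfide-bonded subunit on the intermembrane side (chr4:123717795-123718666), stood at 20.1 and 15.8 CPM, a change of -0.35 (-0.46 to -0.24). Ndufb7, of the same side (chr8:83566381-83567270), stood at 20.7 and 16.2 CPM, a change of -0.36 (-0.47 to -0.25). With the sites in promoter regions as the total, these 5 were the members with a change above 0. The other member on the X chromosome, Ndufb11 (chrX:20617096-20617999), went from 16.7 to 11.9 CPM, or -0.49 (-0.61 to -0.37), near the middle of the list, and the 33 autosomal members had a median of -0.50.

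With Ndufa9, Ndufa11 and Ndufa13 described further on by their levels, 14 members remained, which lay between those extremes, from -0.51 at Ndufa8 to -0.42 at Ndufa2. Among them Ndufab1, the mitochondrial acyl carrier protein and the one member of both arms, went from 27.5 to 19.4 CPM, or -0.50 (-0.60 to -0.41). Ndufa6, its LYR-motif partner in the matrix arm, went from 47.6 to 34.7 CPM, or -0.45 (-0.53 to -0.38), and Ndufs6, a zinc-binding subunit, from 24.6 to 17.8 CPM, or -0.47 (-0.57 to -0.37). The others were Ndufa3, Ndufb4, Ndufb5, Ndufb10 and Ndufc1 of the membrane arm and Ndufa5, Ndufa7, Ndufa12 and Ndufv3 of the matrix arm.

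The size of the change did not follow the level of the member. Spearman's rho between change and Control level was 0.05 over the 35 members, which share 2 libraries. Over all promoters level was taken as the mean CPM of the 2 libraries, another measure than the Control level. By that mean the median change went from -0.19 in the lowest 10% of levels to -0.47 in the highest 10%. All promoters were split by the same mean into 10 bins of like size. Against the median of the bin that held it, a member lay -0.05 away (median), with 27 of 35 below it. Ndufa13, the subunit also known as GRIM-19, and Ndufa11, both of the membrane arm, had the highest levels, 75.3 and 61.4 CPM in Control, and changes of -0.53 (-0.59 to -0.47) and -0.57 (-0.64 to -0.51). For Ndufa13 that level is the sum of 2 regions, 38.9 and 36.4 CPM, with changes of -0.54 and -0.51. No GENCODE start of Ndufa13 or Ndufa11 lay inside these regions, which are also those of Tssk6, Yjefn3 and Vmac, so both ranks rest on shared regions. Ndufa1 and Ndufa9, the latter a matrix-arm subunit near the ubiquinone site, had the lowest levels, 9.54 and 11.6 CPM. Ndufa9 (chr6:126848656-126849569) changed by -0.52 (-0.67 to -0.38). Per kb of region, Ndufa11 led at 70.8 CPM per kb in Control, followed by Ndufs8 at 62.7, and Ndufa1 was last at 10.7. Of the 34 neighbours in the order of Control level, 27 had overlapping counting intervals, so much of the order is not resolved.

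As a share of promoter sites, complex I was lower in MOF cKO too. Promoter regions took 37.9% of the sites of Control and 28.7% of those of MOF cKO epithelial-like cells. Within them the 37 regions held 0.290% in Control (0.288 to 0.293) and 0.271% in MOF cKO (0.269 to 0.273). Of all sites in shared regions they held 0.110% and 0.0778%. Per cell, the share of promoter sites had a median of 0.290% in Control (middle 50% of cells, 0.256% to 0.325%) and 0.270% in MOF cKO (0.237% to 0.307%). The measured shares of single cells thus overlapped widely, and their spread includes the counting error of each cell. With each cell thinned to 5000 sites, a median of 5 of the 35 genes were open in a Control and 3 in a MOF cKO cell. Without thinning the medians were 22 and 18. The mean share of genes open per thinned cell was 13.4% in Control and 8.77% in MOF cKO for the members, against 11.01% and 7.85% for all genes with a promoter region. Unthinned it was 60.5% and 51.3% for the members, against 49.2% and 43.8%.

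Clusters of the 2 libraries were also set side by side, since each epithelial-like cluster held mostly cells of 1 library. In 31 of the 35 members each of the 4 MOF cKO clusters lay below each of the 3 Control clusters, against 50.3% of all promoters. This count rested on the scaling: with promoter sites as the total it was 5 of 35, against 9.73%, and with sites per cell 0 of 35, against 2.06%. Sites per cell are not corrected for depth, so that last count mixes depth with accessibility. Cluster 13 of MOF cKO had a median of 153858 sites per cell. Control clusters 2, 5 and 10 had 68897, 79324 and 167980. The exceptions under the main scaling were Ndufa1, Ndufa8, Ndufb2 and Ndufb7. Ndufb6, for example, ranged from 21.9 to 24.7 CPM over Control clusters and from 13.1 to 16.1 over MOF cKO clusters, and Ndufs3 from 19.6 to 23.5 and from 10.6 to 14.3. Clusters were formed from these same cells and regions and are not replicates. As a share of all sites, the members held 0.110% to 0.111% in Control clusters and 0.0736% in cluster 0, 0.0781% in cluster 3, 0.0830% in cluster 6 and 0.0897% in cluster 13. Of promoter sites they held 0.284% to 0.297% in Control and 0.266% to 0.277% in MOF cKO clusters. The interval of cluster 13 (0.270% to 0.284%) overlapped those of clusters 5 (0.281% to 0.288%) and 10 (0.279% to 0.290%) of Control. Those of clusters 3 (0.273% to 0.280%) and 6 (0.272% to 0.280%) also overlapped that of cluster 10. The interval of cluster 0 (0.263% to 0.268%) overlapped that of no Control cluster. Cluster 13 of MOF cKO and cluster 10 of Control had the highest median doublet scores (0.92 and 0.86), and without them the median change was -0.51.

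**Figure D2:**
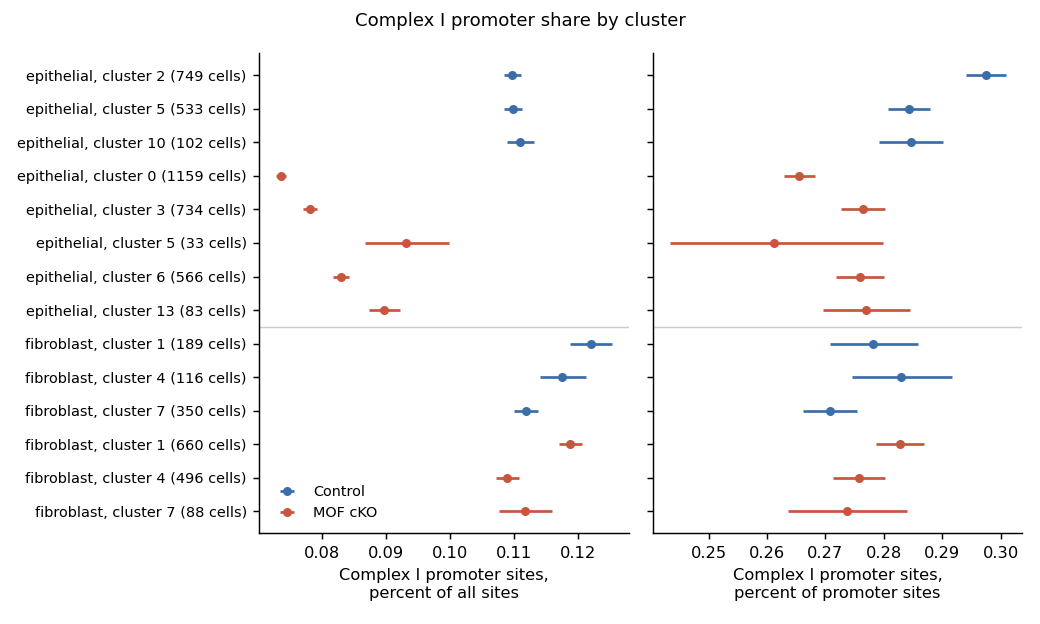
Sites in complex I promoter regions as percent of all sites (left) and of promoter sites (right), for each library in each epithelial-like and fibroblast-like cluster with at least 20 cells; bars are exact 95% binomial intervals. On the left the MOF cKO epithelial clusters lie between 0.0736% and 0.0931%, below the Control ones at 0.110% to 0.111%, while the fibroblast clusters of both libraries lie between 0.109% and 0.122%. On the right the groups lie closer, at 0.261% to 0.277% and 0.284% to 0.297%, with some overlapping bars, and the fibroblast clusters at 0.271% to 0.283% overlap the MOF cKO epithelial ones; the axes do not start at 0.

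Fibroblast-like cells, which the Cre does not target, had changes around 0. The median change over the 35 members was 0.00, and it was -0.03 over 15736 promoters. 18 members were lower and 17 higher, where 58.7% of all promoters were lower. The split followed the scaling. Sites per cell are not corrected for depth, which was 60450 sites per cell in Control and 49714 in MOF cKO fibroblast-like cells. With sites per cell as the unit all 35 were lower and the median was -0.28. The median of all promoters was then -0.31, and 13 of the 35 members lay below it. None of the 35 fell or rose by 1.5-fold or more, against 2.54% and 4.41% of all promoters. Ndufa8, a twin cysteine-motif subunit, was the one member of 35 whose interval did not hold 0 (28.3% of all promoters), at -0.29 (-0.46 to -0.12), with 25.9 CPM in Control and 21.2 CPM in MOF cKO. The highest was Ndufb6, at 19.8 and 22.0 CPM, a change of 0.15 (-0.03 to 0.33). Thus the gene with the lowest change in epithelial-like cells had the highest in fibroblast-like cells. The 6 core genes ranged from -0.09 (Ndufv1) to 0.03 (Ndufs7), with a median of -0.02, and the accessory genes had a median of 0.00.

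The change in epithelial-like cells was below that in fibroblast-like cells at all 35 members, against 85.7% of all promoters. The difference had a median of -0.50 for the members and -0.39 for all promoters, and ran from -0.92 at Ndufb6 to -0.20 at Ndufa1. With promoter sites as the total it was below 0 at 30 of 35 members, against 54.9% of all promoters, with medians of -0.14 and -0.03, and Ndufa1, Ndufa8, Ndufb2, Ndufb7 and Ndufb9 turned. With sites per cell it was below 0 at 34 of 35, against 74.3%, with medians of -0.29 and -0.18, and Ndufa1 turned. With the main scaling, at 33 of 35 members the counting interval in epithelial-like cells lay wholly below that in fibroblast-like cells, against 63% of all promoters (7 of 35, against 12.3%, with promoter sites as the total). The exceptions were Ndufa1 and Ndufa8. Both classes come from the same 2 libraries, and the difference was not tested over embryos.

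**Figure D3:**
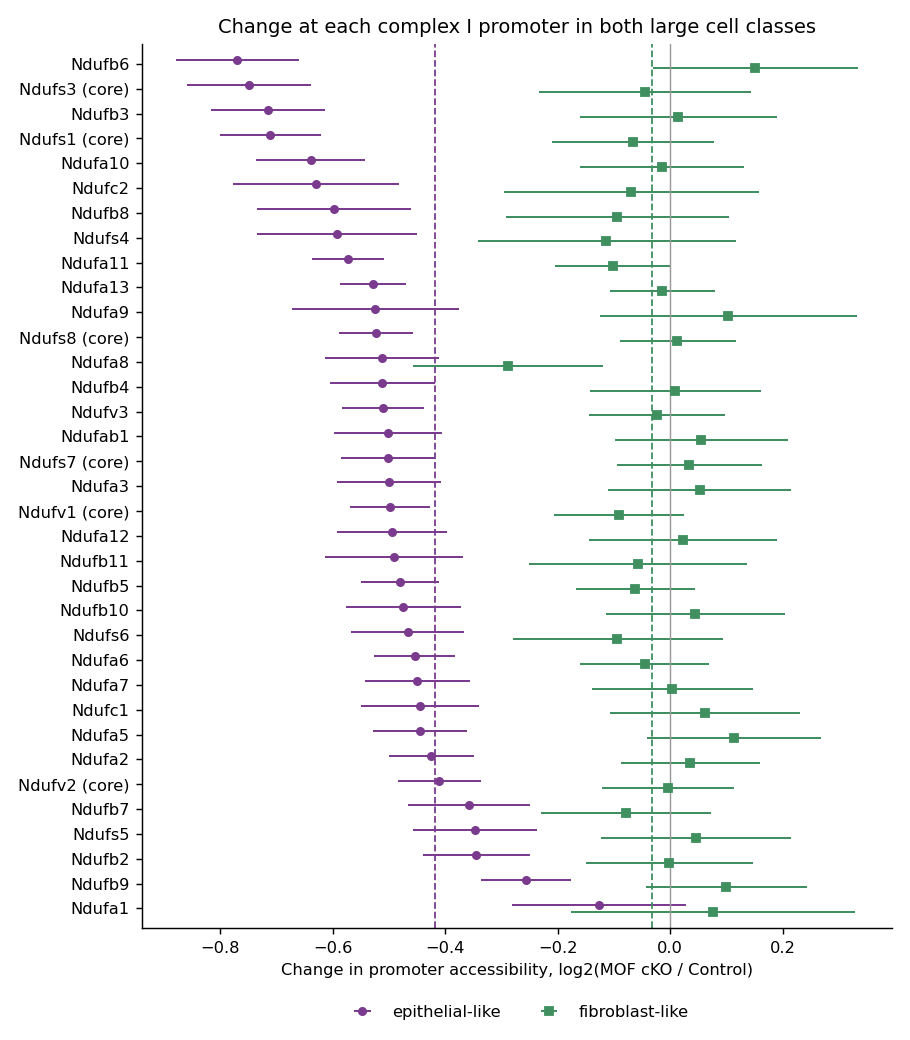
Change at each complex I promoter, log2(MOF cKO / Control), in epithelial-like cells (circles) and fibroblast-like cells (squares), with 95% counting intervals and 1 library per genotype; dashed lines are the medians of all promoters in each class. Epithelial-like points run from -0.77 to -0.13 around a line at -0.42, and fibroblast-like points from -0.29 to 0.15 around a line at -0.03. With sites per cell as the unit, which is not corrected for depth, all fibroblast-like points are below 0, as is the median of all promoters (-0.31).

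In the 2 small classes intervals were wide. Over immune-like cells the median change of the members was -0.06, against -0.02 over all promoters, with 19 of 35 lower, against 52.1%. Over mural-like cells it was 0.07, against -0.01, with 15 of 35 lower, against 50.9% of all promoters. In either class 0 of the 35 intervals lay off 0, against 9.88% of all promoters in immune-like and 5.38% in mural-like cells. Control cells of these classes gave 20 to 215 sites and 6 to 92 sites per member. The share of promoter sites was 0.317% in Control and 0.308% in MOF cKO immune-like cells, 0.249% and 0.257% in mural-like cells, and 0.275% and 0.279% in fibroblast-like cells.

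Across the classes of the Control library, the members kept much of their order. Spearman's rho of the 35 levels in epithelial-like cells was 0.94 with fibroblast-like, 0.89 with immune-like and 0.74 with mural-like cells. These points share a library and a sequence each, and the mural-like class had 19 cells. The median level was 27.5 CPM in epithelial-like, 28.2 in fibroblast-like, 36.1 in immune-like and 27.8 in mural-like cells, where the median over all promoters was 22.9, 25.9, 29.3 and 29.9 CPM. Promoter regions took 49.5% of the sites of Control immune-like cells, against 37.9% in epithelial-like cells. The immune-like level was the highest of the 4 for most members, and how often this held over all promoters was not computed. Ndufb5, for one, stood at 51.8 CPM in epithelial-like, 61.5 in fibroblast-like, 107 in immune-like and 79.3 in mural-like cells. Between the large classes Ndufb7 was lower in epithelial-like cells (20.7 CPM, against 30.4 CPM in fibroblast-like cells), while Ndufa5 went the other way, with 35.3 and 27.7 CPM. Ndufc2 and Ndufa8 varied least, 1.14-fold and 1.19-fold between the highest and the lowest class. Between the libraries, Spearman's rho of the levels in epithelial-like cells was 0.98, with changes of place at the low end, where Ndufa1 was lowest in Control (9.54 CPM) and Ndufc2 in MOF cKO (7.79 CPM).

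**Figure D4:**
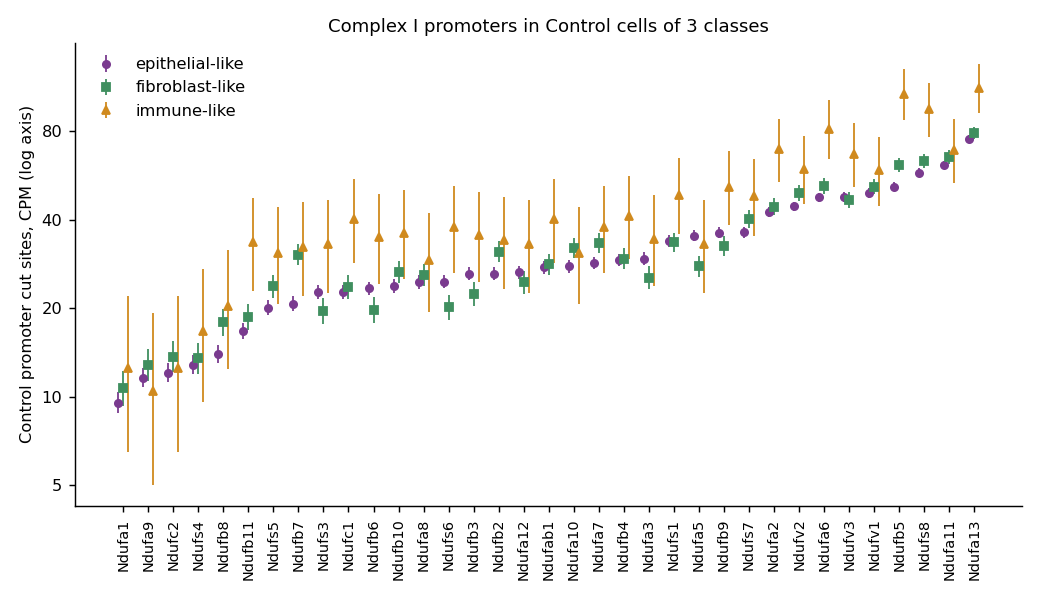
Level of each complex I promoter in Control epithelial-like, fibroblast-like and immune-like cells, in CPM on a log axis, ordered by the epithelial-like level; bars are exact 95% Poisson intervals on fragments. Ndufa1 is lowest at 9.54 CPM and Ndufa13 (2 regions summed) highest at 75.3 CPM in epithelial-like cells, and the immune-like points have the widest bars.

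Assembly factors build the complex without being part of it, and 17 of 18 listed had a promoter region (all but Coa1). In epithelial-like cells their median change was -0.45, and all 17 were lower, against 85.8% of all promoters. With promoter sites as the total 13 of 17 were lower, against 53.5%, and Ndufaf4, Ndufaf6, Ndufaf7 and Tmem186 turned. With the main scaling 4 fell by 1.5-fold or more (23.5%, against 18.9% of all promoters). That count was 7 with sites per cell (41.2%, against 30.3%) and 0 with promoter sites as the total (against 2.63%). The lowest were Ndufaf3, from 57.5 to 32.9 CPM, or -0.80 (-0.87 to -0.73), Acad9, an acyl-CoA dehydrogenase family member, at -0.79 (-0.89 to -0.68), and Ndufaf1 at -0.74 (-0.89 to -0.59). The highest were Ndufaf7, a methyltransferase that acts on a core subunit, at -0.21 (-0.29 to -0.13), Ndufaf4 at -0.30 (-0.40 to -0.21) and Tmem186 at -0.33 (-0.41 to -0.25). In fibroblast-like cells their median was 0.00.

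The other complexes of the chain moved by like amounts. Median changes in epithelial-like cells were -0.55 for complex II (4 genes), -0.51 for complex III (9), -0.47 for complex IV (11) and -0.46 for complex V (16). All 40 genes were lower, against 85.8% of all promoters, or 29 of 40, against 53.5%, with promoter sites as the total. With the main scaling 4 of them fell by 1.5-fold or more (10.0%), against 18.9% of all promoters. That count was 15 with sites per cell (37.5%, against 30.3%) and 0 with promoter sites as the total (against 2.63%), so its place beside all promoters turned with the scaling. 27 of the 40 lay below the median of all promoters (67.5%), where 29 of 35 complex I genes did (82.9%). In fibroblast-like cells the 40 genes had a median of 0.02. No difference between the complexes was tested.

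**Figure D5:**
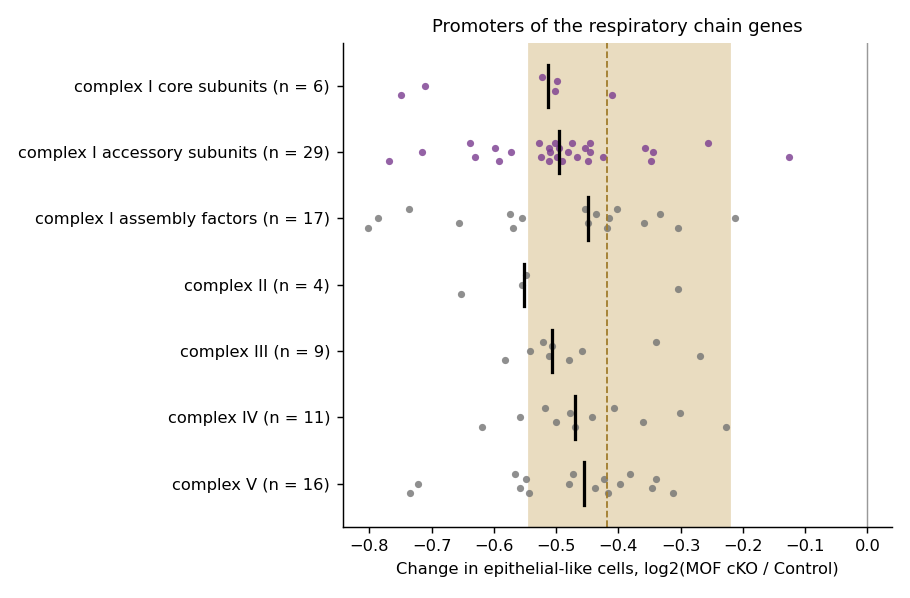
Change at single promoters in epithelial-like cells, log2(MOF cKO / Control), by gene list; each point is a gene and each black bar the median of its list. The dashed line is the median of all promoters (-0.42) and the shaded band their middle 50% (-0.54 to -0.22); the list medians run from -0.55 to -0.45, with 1 library per genotype.

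With the main scaling, regions away from start sites had a median nearer to 0 and a wider spread. Distal values were not computed with other totals. Another total shifts all regions of a class by the same amount, so the members' median stays as far below the distal one. Which of them lies nearer to 0 can change. With promoter sites as the total the members' own median was -0.10, and the distal medians would move up by the same amount as the members. Within 50 kb of the members' starts lay 246 regions over 2000 bp from any start site, with a median change of -0.18 in epithelial-like cells, against -0.09 over 165639 such regions. 13.8% of them fell and 13.0% rose by 2-fold or more, against 13.6% and 18.7% of all such regions. In fibroblast-like cells the median was 0.00, against 0.05.

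Changes were also read by motif, as a description. The 4 members with the ETS motif (Ndufb6, Ndufs3, Ndufs8 and Ndufb7) had a median change of -0.64, and ranged from -0.77 at Ndufb6 to -0.36 at Ndufb7. Members without it had a median of -0.50. For the 8 members with the NRF1 motif the median was -0.47, and for those without -0.50. With the YY1 motif it was -0.50 for 7 members, and without -0.50. No motif divided the members into groups that did not overlap.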

How the data were processed

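Each deposited matrix holds counts, the number of transposase cut sites per peak and barcode. Per the file headers the authors made them with cellranger-atac 2.0.0 on mm10, calling peaks and cells in each library separately, and 88.8% (Control) and 91.6% (MOF cKO) of the values are even, since each fragment has 2 ends.

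Here, overlapping peaks (at least 1 bp) were joined, which gave 214119 shared regions where both libraries had a peak. A promoter region lay within 500 bp of the start of a protein-coding transcript (GENCODE vM21, GRCm38). Cells with at least 1000 sites (2481 Control, 4348 MOF cKO) were clustered with TF-IDF, singular vectors (scikit-learn 1.9.0) and Leiden (leidenalg 0.10.2, resolution 1), and clusters were named from marker promoters. Clusters 8, 11 and 14 kept no name. Doublet scores were computed and no cell was removed. Counts were summed per library and class and scaled to sites in shared regions of that class (CPM), with genes of at least 20 sites over both libraries. Intervals are exact (Poisson for levels, binomial for ratios and shares; scipy 1.17.1) on sites divided by 2. Calls are folds of 1.5 or 2. The count step was checked on simulated data. No test was possible with 1 library per genotype, which also means that embryo and genotype cannot be told apart.

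The members and lists were chosen with earlier results of these data known. Named genes are the core subunits, the 5 lowest and 5 highest changes, the 2 lowest and 2 highest levels, members on the X chromosome, and the 3 lowest and 3 highest assembly factors. Members named beside these were picked after their values were seen. Sequence was planned for the 2 lowest and 2 highest changes and up to 4 motif members. Where the bases before the start lay in exons, or no RefSeq window was held, the next member was shown.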

Additional observations from a re-analysis of the deposited data

Results flagged for a closer look

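3 members changed in opposite directions in the 2 large classes by over 0.1 on the log2 scale in each (16.2% of all promoters did), with 1 library per genotype, and the differences were not tested. Ndufb6, a membrane-arm subunit, changed by -0.77 in epithelial-like cells, against 0.15 in fibroblast-like cells, a difference of -0.92. For Ndufa9, beside the ubiquinone site, the changes were -0.52 and 0.10, a difference of -0.63. For Ndufa5, of the matrix arm, they were -0.44 and 0.11, a difference of -0.56. In all, 17 members were lower in MOF cKO among epithelial-like cells but higher among fibroblast-like cells, against 32.6% of all promoters, and 0 of these 17 had a fibroblast-like interval above 0. With sites per cell as the unit, which is not corrected for depth, every member was lower in fibroblast-like cells. There the median was -0.28 for the members and -0.31 for all promoters.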

How the results depend on the processing

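No paired analysis was possible because each genotype had 1 library. The total used for scaling set the size of the change. In epithelial-like cells the members' median was -0.64 with every peak of a library in the total (28 members fell by 1.5-fold or more, against 45.4% of all promoters), -0.57 as sites per cell, -0.35 with median-of-ratios size factors (2 fell, against 7.55%), and -0.10 with promoter sites as the total (0 fell, against 2.63%, and 19 intervals lay below 0). Under that last total Ndufb2 (0.0556), Ndufb7 (0.0421), Ndufb9 (0.144) and Ndufs5 (0.0531) reversed, and Ndufa1, whose interval held 0, stood at 0.27. Under these 4 totals the median less that of all promoters stayed at -0.08, as a common factor cancels. With cells thinned to 5000 sites the median was -0.53, or -0.13 less that of all promoters, 15 of 35 fell, against 23.4% of all promoters, and the share of promoter sites differed by -0.0283 percentage points. With regions counted as open or not, the median was -0.37, 2 fell, against 9.73%, and the share differed by -0.0128 points. The share differed by -0.0148 points with a 100 bp window (33 members) and by -0.00933 points over the 20 members alone at their regions, of which 5 fell, against 18.9%, and 20 had an interval below 0. In fibroblast-like cells the median was -0.0528 with every peak in the total, -0.28 as sites per cell, 0.0349 with promoter sites as the total and -0.0550 thinned, which is -0.0381 less that of all promoters. The cause of the thinned and open-or-not values was not tested. Over all settings, 393 of 543 recomputed member changes fell inside the member's main 95% counting interval, 146 fell outside it and the 4 above reversed. The 393 include repeats of the main value. Leaving out the minimum on sites, or keeping only members alone at their regions, cannot change a member's own value. Peaks taken singly and windows of 100 and 1000 bp gave the main range of member changes, -0.77 to -0.13. The core minus accessory median was -0.02, with -0.08 after thinning, 0.05 with regions open or not and 0.00074 over members alone at their regions. In every setting that held them, 17 members lay below the median of all promoters, and 2 (Ndufa1 and Ndufb9) above it. The share of all promoters that kept their place in this way was not computed. Settings that change only the total cannot move a member across that median. The settings without the clusters of highest doublet score, with the shallow unnamed cluster counted as epithelial, relative to all promoters, and with other totals for the clusters, the related lists and the difference between classes were chosen after seeing the data. The immune-like and mural-like values rest on few Control cells (46 and 19), and no member's change could be resolved there.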

Other observations

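33 MOF cKO cells fell into cluster 5, an epithelial-like cluster with 533 Control cells. There the complex I promoters held 0.261% of promoter sites (0.243 to 0.280) in the MOF cKO cells and 0.284% (0.281 to 0.288) in the Control cells, and 0.0931% and 0.110% of all sites. The 3 clusters without a name had values of their own. In cluster 8, a shallow cluster of mostly Control cells, the share of promoter sites was 0.278% in both libraries. In cluster 11 it was 0.263% (0.242 to 0.285) in Control (14 cells) and 0.280% (0.266 to 0.294) in MOF cKO (87 cells). In cluster 14 it was 0.249% (0.235 to 0.263) in Control (30 cells) and 0.284% (0.270 to 0.299) in MOF cKO (53 cells), so there the intervals lay apart and MOF cKO was the higher, opposite to epithelial-like cells.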
